A study of Drosophila melanogaster with 3 samples.

Results

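One-directional upstream promoter regions are stretches of B-H1-eGFP occupancy that lie just upstream of a protein-coding transcript start site (TSS) and have no second protein-coding start facing away from them. They were found by merging overlapping peaks of the 3 replicates, keeping regions with peaks from at least 2 replicates, and keeping those whose summit lay 0 to 1000 bp upstream of the nearest TSS, where that gene was protein-coding and no protein-coding TSS on the other strand had the summit within 1000 bp upstream of it. The search gave 548 regions, 26.3% of the 2084 regions with peaks from 2 or more replicates. The rule asked for the presence of peaks and for position. It set no minimum of signal, but where replicates differed the summit was that of the peak ranking highest in its own list, so signal had a part in where a summit was placed.

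The series holds chromatin immunoprecipitation followed by sequencing (ChIP-seq) of sonicated chromatin from whole Drosophila melanogaster embryos of strain B-H1-GFP, aged 8 to 24 hours by the source label. All 3 biological replicates form 1 group and carry an insertion that makes a B-H1-eGFP fusion protein. The description names an antibody against GFP, while a separate antibody field reads B-H1. Whole embryos mix all cell types, so a region's signal cannot be assigned to a tissue, and the cells that make the fusion protein are not given in the labels.

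B-H1, or BarH1, belongs to the Bar class of homeodomain proteins and is known for patterning external sense organs, the eye and the distal leg. A homeodomain protein reads short AT-rich sites and acts from enhancers as well as from promoters. Fly promoters fall broadly into those of widely used genes, which often sit back to back and carry elements such as the DRE (the site of DREF), Motif 1 (the site of M1BP) and Motif 7, and those of regulated developmental genes, which often stand alone and carry elements such as a TATA box or GAGA sites.

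The sequences at some of the strongest of these regions show what lay under the summits. Each is written on the strand of its gene, in dm6 coordinates from the Release 6 assembly of RefSeq, so the gene lies to the right. Capitals mark preset motifs on either strand: TATAAA (the letters of a TATA box), TAATTG (a Bar-class site), TAATTA (a homeodomain core) and GAGAGA (the GAGA site). They also mark the 5-base word CACTG on either strand, chosen after seeing the data. The first 5 are from 7 of the 20 strongest regions with peaks in all 3 replicates, each holding a preset motif, and leave out CG31145 and MFS18. Regions on 1 chromosome arm are not printed here. Of the other strongest regions, those at pigs and TRAM, both in untranslated regions, also hold a preset motif and were not among the 7. The last 3 were chosen after their values were seen.
CG18549: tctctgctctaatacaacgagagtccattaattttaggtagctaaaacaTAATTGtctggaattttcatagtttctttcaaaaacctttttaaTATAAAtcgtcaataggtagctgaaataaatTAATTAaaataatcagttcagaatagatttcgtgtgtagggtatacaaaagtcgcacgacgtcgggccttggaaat
Rtnl1: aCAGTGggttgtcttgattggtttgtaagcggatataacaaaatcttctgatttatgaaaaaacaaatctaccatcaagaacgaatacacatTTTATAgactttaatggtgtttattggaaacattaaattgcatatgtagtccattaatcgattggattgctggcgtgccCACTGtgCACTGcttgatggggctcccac
msi: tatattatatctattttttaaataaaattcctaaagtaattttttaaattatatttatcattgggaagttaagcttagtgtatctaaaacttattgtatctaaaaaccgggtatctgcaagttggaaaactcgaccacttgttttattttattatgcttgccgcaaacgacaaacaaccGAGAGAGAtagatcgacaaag
Gapdh2: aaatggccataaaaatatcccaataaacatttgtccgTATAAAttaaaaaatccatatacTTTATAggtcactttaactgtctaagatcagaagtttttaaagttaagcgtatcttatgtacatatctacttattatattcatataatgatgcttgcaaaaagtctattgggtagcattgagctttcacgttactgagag
Hsp27: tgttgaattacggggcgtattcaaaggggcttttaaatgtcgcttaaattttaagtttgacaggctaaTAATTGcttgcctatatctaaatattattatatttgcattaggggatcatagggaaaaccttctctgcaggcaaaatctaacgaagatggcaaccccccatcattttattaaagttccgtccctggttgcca
RluA-1: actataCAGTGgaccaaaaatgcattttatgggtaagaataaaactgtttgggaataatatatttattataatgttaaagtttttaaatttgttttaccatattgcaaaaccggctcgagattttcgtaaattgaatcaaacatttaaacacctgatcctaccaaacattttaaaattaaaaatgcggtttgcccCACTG
PAN3: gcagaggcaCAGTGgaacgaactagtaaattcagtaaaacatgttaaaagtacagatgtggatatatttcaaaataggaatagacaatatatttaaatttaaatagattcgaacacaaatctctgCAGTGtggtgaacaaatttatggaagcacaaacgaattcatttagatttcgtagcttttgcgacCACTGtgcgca
CG14100: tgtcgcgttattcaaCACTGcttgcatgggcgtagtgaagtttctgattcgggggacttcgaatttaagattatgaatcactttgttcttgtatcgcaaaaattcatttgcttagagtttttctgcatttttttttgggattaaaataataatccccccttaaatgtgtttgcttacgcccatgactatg

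These windows lie at chr3R:12449061-12449260 (CG18549, plus strand), chr2L:4997552-4997751 (Rtnl1, minus strand), chr3R:25515835-25516034 (msi, plus strand), chrX:15867891-15868090 (Gapdh2, plus strand), chr3L:9383806-9384005 (Hsp27, plus strand), chr2L:10474421-10474620 (RluA-1, minus strand), chr3L:3081324-3081523 (PAN3, plus strand) and chr3L:19590525-19590714 (CG14100, minus strand). The CG14100 window was shortened to 190 bases to end before the TSS. In CG18549 a TATAAA was centred 4.5 bp from the summit, between a TAATTG 48.5 bp away on one side and a TAATTA 26.5 bp away on the other. In RluA-1 the word CACTG stood 91 bp to the left of the summit on the opposite strand, where it reads CAGTG, and 98 bp to the right of it on the gene's strand. PAN3 had the same arrangement at 89 bp to the left and 91 bp to the right, with a further CAGTG 27 bp to the right, and Rtnl1 at 96 bp to the left and at 74 and 81 bp to the right. The printed windows of RluA-1, PAN3 and Rtnl1 had GC contents of 29%, 34% and 37.5%.

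Peak signal comes from the authors' peak caller on an unstated scale, so each peak was placed by its percentile among the peaks of its own replicate on the 6 chromosome arms. The thresholded lists held 1971, 3609 and 2199 such peaks in replicates 1, 2 and 3. Replicate 2 thus has the longest list, and a region found in several replicates tends to sit higher in it, in every kind of region.

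The region with the highest mean percentile was at chr3L:19590474-19590756, an intergenic stretch 91 bp upstream of CG14100 (FBgn0036889). It stood at percentiles of 100, 99.94 and 99.95 in replicates 1, 2 and 3, with caller signals of 743, 876 and 835. The second, at chrX:2137229-2137486, fell within an intron of the Polycomb gene ph-p (FBgn0004861), 509 bp upstream of one of its starts, at percentiles of 99.7, 99.9 and 99.8. Both were thus at the very top of every list. The third lay 135 bp upstream of CG18549 (FBgn0038053) at percentiles of 99.1, 99.8 and 99.3.

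Of the 20 regions with the highest mean percentile among those with peaks in all 3 replicates, 11 were intergenic and 5 lay in introns. The other 4 lay in untranslated regions of another transcript or gene, and 17 of the 20 had their summit within 300 bp of the TSS. The lowest percentile of any of the 20 in any replicate was 95.7. Their nearest genes had varied roles. Sox14, a SoxC transcription factor gene (chr2R:23978453-23978662), had percentiles of 97.7, 97.5 and 98.0, HmgZ, which encodes a chromatin protein with an HMG box, had 99.1, 98.7 and 99.5, and px (plexus), known for wing vein patterning, had 98.7, 99.7 and 99.1.

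Others of the 20 serve the neural lineage, metabolism and stress. The region 183 bp upstream of msi, which encodes the RNA-binding protein Musashi that acts in sensory organ precursors, stood at 97.5, 98.1 and 97.0. The region 154 bp upstream of Gapdh2, a glycolytic enzyme gene, stood at 96.2, 99.7 and 96.1, and that 157 bp upstream of Hsp27, a small heat shock protein gene, at 96.8, 97.4 and 97.8. Sesn, which encodes the stress-responsive sestrin, stood at 97.3, 99.4 and 98.1, with a TSS of another gene at the same distance. In each of these the replicates stood close together near the top of their lists. Rtnl1, which encodes a reticulon that shapes the endoplasmic reticulum, RluA-1, of the pseudouridine synthase family, Tina-1, Fkbp14, a prolyl isomerase gene, pigs, TRAM, MFS10, MFS18, CG31145 and CG1888 complete the list.

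The 548 regions belonged to 500 genes, of which 460 had 1 region, 36 had 2 and 4 had more. Rtnl1 had 5, at 4 of its starts and 215 to 681 bp upstream. Moe, which encodes the membrane and actin linker Moesin, and Ptpmeg2, a tyrosine phosphatase gene, had 4 each, and dnc, the cAMP phosphodiesterase gene dunce, had 3. Several regions of one gene varied widely in strength: the 5 at Rtnl1 had mean percentiles of 98.3 ± 0.3, 84.7 ± 5.4, 48.1 ± 27.5, 41.4 ± 5.2 and 30.9 ± 6.9 (SD over 3 replicates). In 16 regions more than 1 gene had a TSS at the same distance.

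As a group, the one-directional upstream regions stood above distal regions, whose summits lie more than 1000 bp from any TSS. The one-directional median percentile was 63.4, 76.0 and 60.1 in replicates 1, 2 and 3, against 46.7, 66.6 and 48.9 for the 838 distal regions. All 2084 regions with peaks from 2 or more replicates had medians of 56.0, 70.8 and 57.2, so they too stood above the middle of each list. The one-directional regions were higher in 3 of 3 replicates, by 12.4 ± 3.8 percentile points (SD, n = 3; exact paired permutation test, two-sided, p = 0.25, the smallest p that this test allows with 3 replicates, so it cannot pass 0.05). Above the percentile of 90 in each list were 15.5%, 25.9% and 17.9% of the one-directional regions, against 4.87%, 11.6% and 5.16% of the distal regions. That share was higher in each replicate.

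**Figure D1:**
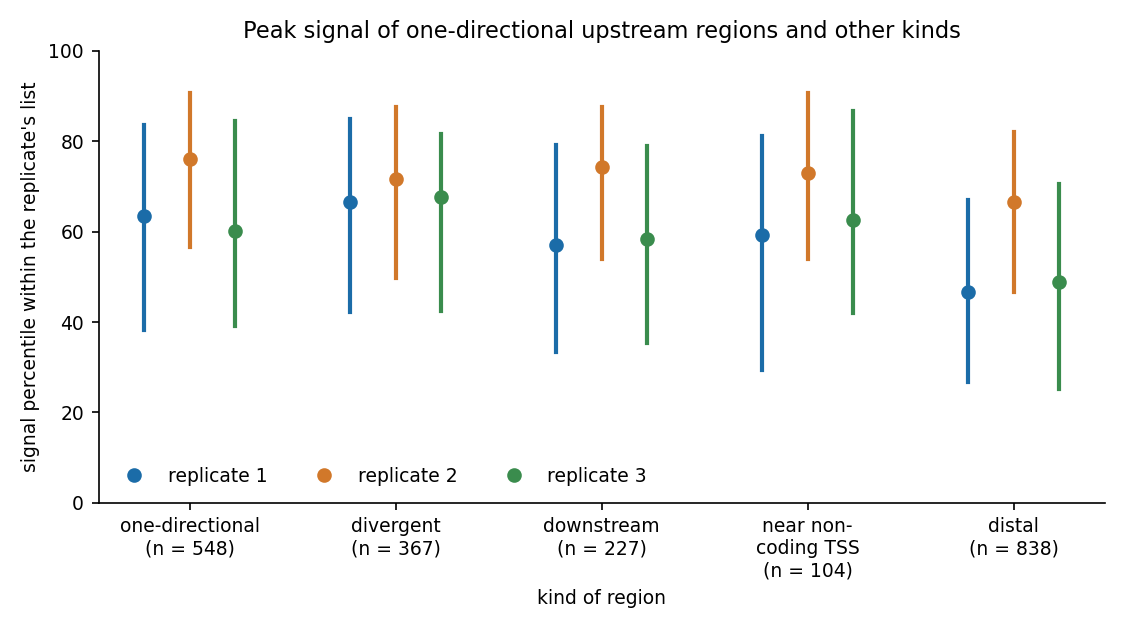
Signal percentile within each replicate's list (0 to 100, vertical axis) by kind of region, one-directional regions first; dots are medians, bars run from the first to the third quartile, colours are replicates. One-directional regions sit above distal regions in all 3 replicates and overlap with divergent promoter regions.

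Divergent promoter regions, where 2 protein-coding genes point away from the summit, are the kind most like them in definition, since both lie upstream of a protein-coding TSS. Their 367 regions had medians of 66.6, 71.7 and 67.6 in replicates 1, 2 and 3. The one-directional regions were lower in replicates 1 and 3 and higher in replicate 2, with a difference of -2.1 ± 6.0 points (SD, n = 3; exact paired permutation test, two-sided, p = 0.75). The difference had no common sign and was smaller than its spread between replicates. Against all 1536 other regions, the one-directional regions were higher by 7.29 ± 2.35 points, in 3 of 3 replicates (SD, n = 3; exact paired permutation test, two-sided, p = 0.25). Of those others, 838 were distal. Against regions up to 1000 bp downstream of a protein-coding TSS the difference was 3.33 ± 2.69 points, higher in 3 of 3 replicates (SD, n = 3). Against regions near a non-coding TSS it was 1.56 ± 3.58 points, higher in 2 of 3 replicates (SD, n = 3).

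Most of the one-directional regions had peaks in every replicate. A peak from all 3 replicates was present in 389 of the 548, or 71.0%, beside 66% of all 2084 regions, where the rule already asked for 2. The share was 68.4% in divergent and 60.9% in distal regions, 65.6% in regions just downstream of a TSS and 73.1% in those near a non-coding TSS. A peak of the series-wide conservative list fell on 530 of the 548 regions, or 96.7%, beside 94.7% of all regions. That share is near the one over all regions.

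Among the 159 one-directional regions with peaks from 2 replicates, the missing one was replicate 1 in 76 cases, replicate 2 in 31 and replicate 3 in 52. The ranked lists, which hold peaks before the authors' threshold, had a peak there in 56, 28 and 50 of these cases. None of those peaks passed the threshold. The highest caller signal at each place had a median at percentiles 97.6, 95.1 and 96.4 of the ranked lists, which are long, with 104625, 98054 and 74130 peaks in all. The median −log10 of the irreproducible discovery rate there was 0.81, 1.00 and 0.75, where the threshold is 2. The missing replicate thus mostly had a strong peak below the threshold at the same place.

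Within the 1000 bp that the rule allows, summits gathered a short way upstream of the start. The median distance was 235.5 bp, with quartiles of 144 and 421 bp. The 101 to 200 bp bin held 167 regions, 30.5% of the total, and the first 100 bp held 62, or 11.3%. In divergent promoters the median distance was 109 bp, which the spacing of the paired starts bounds. With each replicate's own summits the one-directional median was 238.5, 238 and 236.5 bp, and in 422 regions, 77.0%, the replicates' summits lay within 50 bp of each other.

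The peak itself reached the TSS in 151 one-directional regions, 27.6%, against 272 divergent regions, 74.1%. The 229 regions with summits up to 200 bp from the TSS had median percentiles of 64.5, 79.9 and 61.1, against 57.8, 68.6 and 57.2 in the 107 regions more than 500 bp away. The nearer regions were higher in 3 of 3 replicates, by 7.28 ± 3.72 points (SD, n = 3; exact paired permutation test, two-sided, p = 0.25). The trend was not even: the first 100 bp had low medians of 45.4, 69.5 and 48.7, and the next 2 bins of 100 bp had the highest values in replicates 1 and 3.

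**Figure D2:**
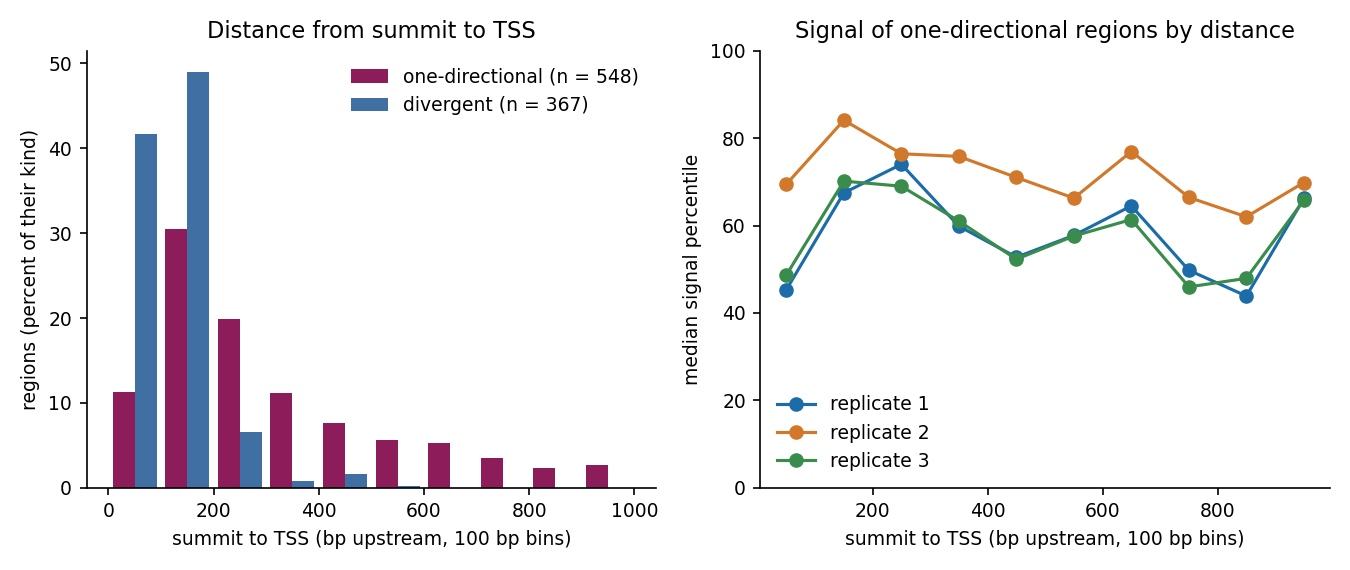
Left, share of one-directional (n = 548) and divergent (n = 367) regions by distance from summit to TSS in 100 bp bins; right, median signal percentile of the one-directional regions in the same bins, by replicate. One-directional summits peak at 101 to 200 bp and tail off to the limit, and their signal is low in the first bin and highest between 100 and 300 bp in replicates 1 and 3.

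At the limit itself, the last regions inside were at sty, 994 bp upstream, with percentiles of 55.4, 63.8 and 77.8, and at NFAT, 989 bp upstream, with 86.7, 86.4 and 81.8. The first outside were at Kank, 1020 bp, with 35.4 and 12.8 in replicates 2 and 3, and at CBP, 1026 bp, with 69.3 and 56.3 in replicates 2 and 3.

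Of the 548 summits, 271 (49.5%) were intergenic and 211 (38.5%) lay in an intron of the gene itself, upstream of an alternative start. A further 34 lay in an intron of another gene, and none lay in a coding exon. For comparison, 11062 points were taken 236 bp upstream of every TSS that is one-directional by the same rule. The next gene upstream pointed the same way in 298 of the regions, 54.4%, beside 54.2% of these promoters, but the median gap from the start to it was 1764 bp, against 896 bp. It pointed away in 181 regions, 33.0%, beside 28.2% of promoters, with a median gap of 6017 bp, against 5440.5 bp. For a start inside its own gene this gap runs partly through that gene, so it is not a measure of intergenic space.

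The X chromosome carried 123 of the regions, 22.4%, beside 17.1% of the one-directional promoters, and the small chromosome 4 carried 2. Only 3 of the 548 windows of 200 bp touched an annotated transposable element, 0.547%, against 240 of the promoter windows, 2.17%. Divergent and distal regions had like shares of 0.272% and 0.358%.

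The DNA under the summits was AT-rich, with a sharp minimum of GC content at the summit. The GC content of 200 bp windows on each replicate's own summits was 33.4%, 34.6% and 34.4% in replicates 1, 2 and 3, against 40.4%, 40.1% and 40.5% in windows centred 500 bp farther from the gene. Summits were lower in 3 of 3 replicates, by 6.21 ± 0.78 percentage points (SD, n = 3; exact paired permutation test, two-sided, p = 0.25). All one-directional promoters had 38.2% at their matched points. Within 40 bp of the summit the regions had 30.7% ± 0.8 (SD, n = 3).

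The same dip appeared in the other kinds, so it was not particular to one-directional regions. Divergent summits had 33.0% ± 0.9 and distal summits 34.6% ± 0.6 (SD, n = 3). On the gene's side of one-directional summits GC content climbed to 46.0% ± 0.1 at 200 to 400 bp, against 40.9% ± 0.2 at the same distance on the other side (SD, n = 3). Runs of 5 A on the gene's strand also differed between the sides: between 60 and 120 bp from the summit they started 10.3, 10.5 and 11.1 times per kb on the side away from the gene and 4.27, 4.09 and 4.47 times per kb on the gene's side, in replicates 1, 2 and 3. The sides did not overlap. Divergent regions had 9.001 and 4.32 and distal regions 10.99 and 4.59 such starts per kb on the 2 sides, on average over replicates, so the asymmetry of A runs was shared by the other kinds. Runs of 5 T were more frequent on the gene's side, at 6.78 and 8.19 starts per kb in one-directional and 4.70 and 13.6 in distal regions. In divergent regions they were not, at 6.68 and 6.02. Runs as such were thus not rarer on the gene's side in every kind.

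A search for 12 preset motifs on both strands of the 200 bp windows gave different shares in one-directional and divergent promoters for several of them. The DRE core TATCGA was in 10.6%, 9.67% and 9.88% of one-directional windows in replicates 1, 2 and 3, against 22.4%, 23.7% and 26.3% of divergent windows and 7.15%, 6.81% and 6.79% of distal windows. One-directional windows were lower than divergent ones by 14.1 ± 2.3 percentage points and higher than distal ones by 3.13 ± 0.29, each in 3 of 3 replicates (SD, n = 3; exact paired permutation test, two-sided, p = 0.25 each). All one-directional promoters held it in 8.28% of windows. The share in the bound regions was thus near that of promoters of this kind.

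Other elements of widely used genes were also compared. The full DRE TATCGATA, which contains TATCGA, was in 1.89% ± 0.06 of one-directional windows, 9.85% ± 1.04 of divergent windows and 0.231% ± 0.086 of distal windows (SD, n = 3). Motif 7, searched as CATCNCTA, was in 3.23% ± 0.19, 9.97% ± 1.23 and 0.739% ± 0.224, beside 1.15% of all one-directional promoters. The Motif 1 core GTCACAC was in 2.88% ± 0.49 of one-directional windows, against 1.88% ± 0.25 of distal windows, a difference of 0.997 ± 0.690 percentage points in 3 of 3 replicates (SD, n = 3; exact paired permutation test, two-sided, p = 0.25). It was 1.59 points without replicate 1, 0.035 in windows of 100 bp and 3.95 in windows of 400 bp.

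Elements known from regulated promoters did not follow 1 order. GAGAGA was in 13.1%, 13.7% and 12.7% of one-directional windows in replicates 1, 2 and 3, against 3.42%, 4.10% and 3.76% of divergent windows. One-directional windows were higher by 9.43 ± 0.42 percentage points in 3 of 3 replicates (SD, n = 3; exact paired permutation test, two-sided, p = 0.25). Their own flanks 500 bp farther out held it as often, in 13.3% ± 0.2 of windows, so it was not concentrated at the summit. Distal summits held it in 12.9% ± 0.3 of windows (SD, n = 3) and all one-directional promoters in 10.6%, and the difference from distal summits had no common sign in the replicates. TATAAA was searched on both strands anywhere in windows centred on summits, whose median distance from the TSS was 235.5 bp. A match thus need not be a TATA box in use at that TSS. TATAAA was in 40.4% ± 0.8 of one-directional summits, 27.5% ± 0.5 of their flanks and 30.2% of all one-directional promoters (SD, n = 3). Divergent summits held it in 48.7% ± 1.4 and distal summits in 37.3% ± 2.1, so one-directional summits were below the divergent and above the distal ones in 3 of 3 replicates. GC content also differs between these summits and flanks. Among the 36 words of the same length made only of A and T, the median ratio of summit to flank share was 1.58. Among the 640 words with 3 G or C bases it was 0.830. TATAAA belongs to the words made only of A and T, and the part of GC content in its share was not tested.

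The Bar-class site TAATTG was in 20.6%, 19.7% and 20.2% of one-directional windows, against 20.1%, 19.04% and 20.1% of distal windows in replicates 1, 2 and 3. The difference was 0.400 ± 0.322 percentage points (SD, n = 3; exact paired permutation test, two-sided, p = 0.25), and it turned in sign with the window length and without replicate 3. Their flanks held it in 20.9% ± 0.6 and all one-directional promoters in 21.2% of windows, so these letters were no more frequent at the summits than around them. A second Bar-class site, TAAACG, was in 8.30% ± 0.74 of summits and 10.2% ± 0.6 of flanks. The general homeodomain core TAATTA was in 16.4% ± 0.3 of summits and 13.0% ± 0.8 of flanks, beside 16.3% of all one-directional promoters (SD, n = 3). Divergent summits held it in 23.1% ± 1.1 and distal summits in 20.02% ± 1.4, so one-directional summits were below both in 3 of 3 replicates.

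Of the remaining presets, the E box CAGCTG was in 6.09% ± 1.15 of one-directional summits and 6.80% ± 0.20 of their flanks. The E box CACGTG was in 2.68% ± 0.49 and 3.30% ± 0.18, and the Zelda site CAGGTA in 3.51% ± 0.29 and 4.39% ± 0.43 (SD, n = 3). None of these was higher at the summits in every replicate.

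Among all 2080 6-base words, the 10 with the highest ratio of summit to flank share began with ATACCC, which was in 15.1% of summit windows and 4.98% of flanks, a ratio of 2.99 ± 0.06 (SD, n = 3), beside 6.80% of all one-directional promoters. The word ACAGTG was in 23.9% of summit windows and 9.56% of flanks, a ratio of 2.49 ± 0.14, and ACACTG had a ratio of 2.56 ± 0.13. Both hold CACTG on one strand or the other. The other words had ratios of 2.75 ± 0.10 for GGTATA, 2.63 ± 1.19 for CGGTAC, 2.62 ± 0.66 for CCTAGG, 2.46 ± 0.48 for AGGGTA, 2.41 ± 0.84 for CGCTAG, 2.39 ± 0.20 for ATATAG and 2.31 ± 0.10 for ACTGTG.

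The word CACTG, chosen after seeing these values, sat on both shoulders of the summit rather than at its centre. Between 60 and 120 bp from one-directional summits it occurred 4.89, 4.85 and 4.62 times per kb in replicates 1, 2 and 3. Within 40 bp of the summit it occurred 1.27, 1.72 and 1.81 times per kb, and at 200 to 400 bp 2.14 ± 0.03 times per kb (SD, n = 3). The shoulders held it more often than the centre and the farther sequence in each replicate. Since words with it were picked for being more frequent at these summits than in their flanks, this is a description and was given no test. On the side away from the gene the shoulder, with a GC content of 36.3%, held it 4.55 ± 0.15 times per kb, against 2.18 ± 0.08 times per kb in the farther sequence, at 40.9% GC (SD, n = 3). Such shoulders were not particular to one-directional regions. Distal regions had 5.82 words per kb on the shoulders, 2.31 at the centre and 1.85 farther out, on average over replicates. The same values in divergent regions were 3.65, 1.79 and 2.15.

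**Figure D3:**
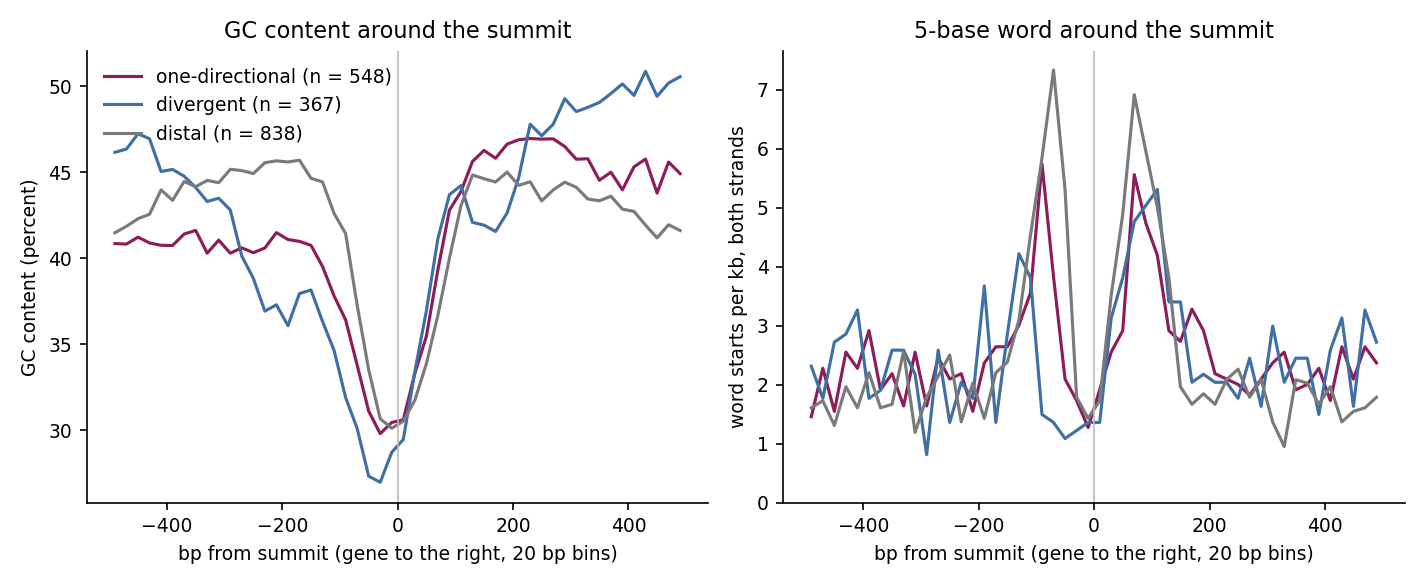
GC content (percent, left) and starts of the 5-base word per kb on both strands (right) in 20 bp bins from 500 bp left to 500 bp right of the summit, with the gene to the right, for one-directional (n = 548), divergent (n = 367) and distal (n = 838) regions. GC content is lowest near the summit in each kind. In one-directional and in distal regions the word is most frequent on both sides of the summit and drops between them.

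The word stood on both shoulders in 48 one-directional regions, 8.76%, on one in 180 and on neither in 320. With each replicate's own summits the share with both was 8.69%, 9.28% and 8.67%, against 1.69%, 1.16% and 0.605% in windows 500 bp farther from the gene. All one-directional promoters had it at 0.967% of their matched points. Divergent regions had it at 5.90%, 5.05% and 3.76% and distal regions at 12.3%, 14.9% and 13.9%. One-directional regions were thus between the other kinds in every replicate, 3.98 ± 1.09 percentage points above divergent and 4.81 ± 1.03 below distal regions (SD, n = 3). The word was picked at the one-directional summits, so these differences are a description and are given without a test.

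In 21 of the 48 regions the left word was on the strand opposite to the gene and the right one on the gene's strand, as printed for RluA-1 and PAN3. The reverse arrangement was found in 10, the same strand on both sides in 5 and 5, and a mixture in 7. Among the 20 strongest regions, 6 had the word on both shoulders, 4 on one and 10 on neither.

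Signal was higher where the word flanked the summit. The 48 regions with both words had median percentiles of 74.4, 88.2 and 82.7 in replicates 1, 2 and 3, against 56.9, 73.3 and 57.7 for the 320 regions with none. The 180 regions with 1 stood between, at 67.6, 78.2 and 62.2. Regions with both exceeded regions with none in 3 of 3 replicates, by 19.1 ± 5.2 points (SD, n = 3). The word and its shoulders were chosen after seeing the data, so this difference too is given without a test. The median distance to the TSS was 190.5 bp with both, 258 bp with 1 and 233 bp with none, and its part in the signal was not tested. Peaks from all 3 replicates were present in 87.5% of the regions with both, 77.2% with 1 and 65.0% with none, beside 66% of all regions. The longer word CCACTGTG, also chosen after seeing the data, was in 43 one-directional regions, with medians of 77.0, 85.1 and 73.4, against 59.9, 74.4 and 59.2 in the 505 regions without it. Another extension, CACTGAGA, did not share this: the 26 regions with it had medians of 43.9, 77.9 and 55.1, against 64.1, 76.0 and 60.2 in the 522 without it.

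**Figure D4:**
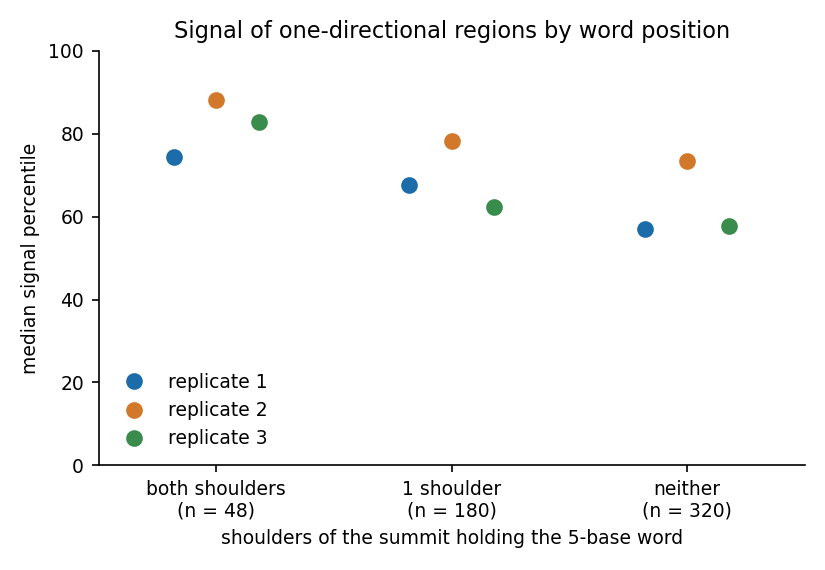
Median signal percentile (0 to 100) of one-directional regions with the 5-base word on both shoulders (n = 48), on 1 (n = 180) or on neither (n = 320), a dot per replicate. In each replicate the median is highest with both and lowest with neither.

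Which genes carried one-directional regions was described over 29 lists by counts alone, beside 500 of 13945 protein-coding genes (3.59%), and beside 5.61% of the 8912 genes that have a one-directional promoter. Glycolysis had the highest share, 4 of 11 genes. Besides Gapdh2 these were Ldh, lactate dehydrogenase (chr3L:6262751-6263067, 224 bp upstream), with percentiles of 79.8, 81.9 and 73.1, Hex-A, a hexokinase gene (chrX:9585343-9585642, 128 bp upstream), with 78.7, 89.5 and 64.6, and Pgk, phosphoglycerate kinase, with 56.8, 43.4 and 69.5. All 4 had peaks in all 3 replicates, and Gapdh2 was the strongest in each.

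Signalling genes were second in share and highest in number, with 7 of 41 genes of the Wnt, Hedgehog, BMP and EGFR pathways. The strongest were spi, which encodes the EGFR ligand Spitz (chr2L:19575590-19575947), at 88.6, 83.6 and 86.8, Mad, the Smad of BMP signalling, at 66.5, 91.0 and 81.4, and nkd, an inhibitor of Wnt signalling, at 42.1, 91.2 and 84.2. The others were sty, brk, Wnt6 and aop, with mean percentiles of 65.7, 45.4, 20.9 and 17.3. None of the 41 was the nearest gene of a divergent region, beside 2.62% of all protein-coding genes, a share at which a list of this size would hold few.

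Neural and glial genes carried some of the stronger regions. The region at elav, the RNA-binding protein used as a marker of neurons, (chrX:523361-523598) lay 261 bp upstream of its TSS, in an intron of another gene. It stood at percentiles of 93.2, 95.2 and 95.1. Another gene had a TSS at the same distance, so the naming of elav rests on the rule for ties. In the same list dlg1, a scaffold of junctions and synapses, had 38.1, 71.2 and 14.9 (2 of 22 genes). At moody, a receptor gene of the glia that form the blood-brain barrier (chrX:2050179-2050384, 160 bp upstream), the values were 87.1, 97.3 and 95.1, and at Gs2, a glutamine synthetase gene, 57.2, 71.9 and 42.6 (2 of 13 genes). In the Notch and proneural list, brat, which restrains neural stem cell growth, had 92.0, 96.6 and 94.3, and numb, the Notch inhibitor handed to 1 daughter cell, had 90.2, 80.0 and 83.8 (2 of 34 genes). The count of this list is 6.45% of its 31 genes with a one-directional promoter, near the 5.61% over all such genes. In each of these pairs the first gene was the stronger in every replicate.

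Homeobox genes gave 3 of 70, tin (tinman, of heart development), NK7.1 and Dll (Distal-less, of limb development). That is 4.29%, near the 3.59% over all genes, and 4.48% of the 67 with a one-directional promoter, beside 5.61%. The region at tin (chr3R:21378618-21378917) lay 190 bp upstream. The percentiles were 82.6, 95.8 and 92.6 at tin, 80.9, 86.0 and 77.9 at NK7.1, and 94.2 and 48.7 in replicates 2 and 3 at Dll, which had no peak in replicate 1. Axon guidance and adhesion gave 3 of 28, led by PlexA, a semaphorin receptor gene on chromosome 4, at 94.2, 89.8 and 91.5, with trio and unc-5. Muscle genes gave 3 of 27, led by Msp300, which anchors nuclei, at 89.0, 89.97 and 91.6, with the titin-like sls and the fusion gene rols. Tracheal genes gave 2 of 13, sty and the regulator trh, and Polycomb and trithorax genes 2 of 30, the neighbours ph-p and ph-d, similar tandem copies between which reads may be shared.

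Lists of basic cell functions ranged from no region to a share above that over all genes. Mitochondrial ribosomal proteins had 0 of 73, oxidative phosphorylation 0 of 89, the proteasome 0 of 48, tRNA synthetases 0 of 32, splicing 0 of 35, nucleoporins 0 of 21 and autophagy with peroxisomes 0 of 35. In the first 3 of these lists 14, 43 and 24 genes do have a one-directional promoter. For tRNA synthetases, splicing, nucleoporins and autophagy with peroxisomes the numbers are 9, 6, 3 and 11. At the 5.61% over all genes with such a promoter, most of these lists would hold few regions or none. Cytosolic ribosomal proteins had 6 of 91, or 6.59%, against 15 of 91 as nearest genes of divergent regions. The 6 are 16.7% of the 36 with a one-directional promoter, beside 5.61% over all such genes. Their regions stood low: the strongest, at RpL23A, was at 69.5, 86.6 and 65.6, and the median of the 6 was 41.2, beside 62.2 over all 500 genes. All 6 had summits 7 to 84 bp from the TSS. One-directional regions in the first 100 bp had low medians in general, of 45.4, 69.5 and 48.7, and the part of this distance was not tested. RpL17 and RpL22 were the next strongest.

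Smaller counts came from translation factors (eEF1gamma and eEF1alpha1, 2 of 54), vesicle traffic (deltaCOP and Rab5, 2 of 99) and mitochondrial import with chaperones (Hsp27 and its neighbour Hsp26, 2 of 52). Single genes were found for RNA modification (Nsun5, of 28), transcription machinery (Taf4, of 79), DNA replication (CycE, of 50) and insulator factors (row, of 19). Among lists of late differentiated functions, chemoreceptors had 0 of 181 and cuticle proteins 0 of 122, although 148 and 102 of them have a one-directional promoter. Cytochrome P450 with glutathione transferases had Cyp310a1 alone of 118, and serine proteases with odorant-binding proteins had Obp99b alone of 72.

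**Figure D5:**
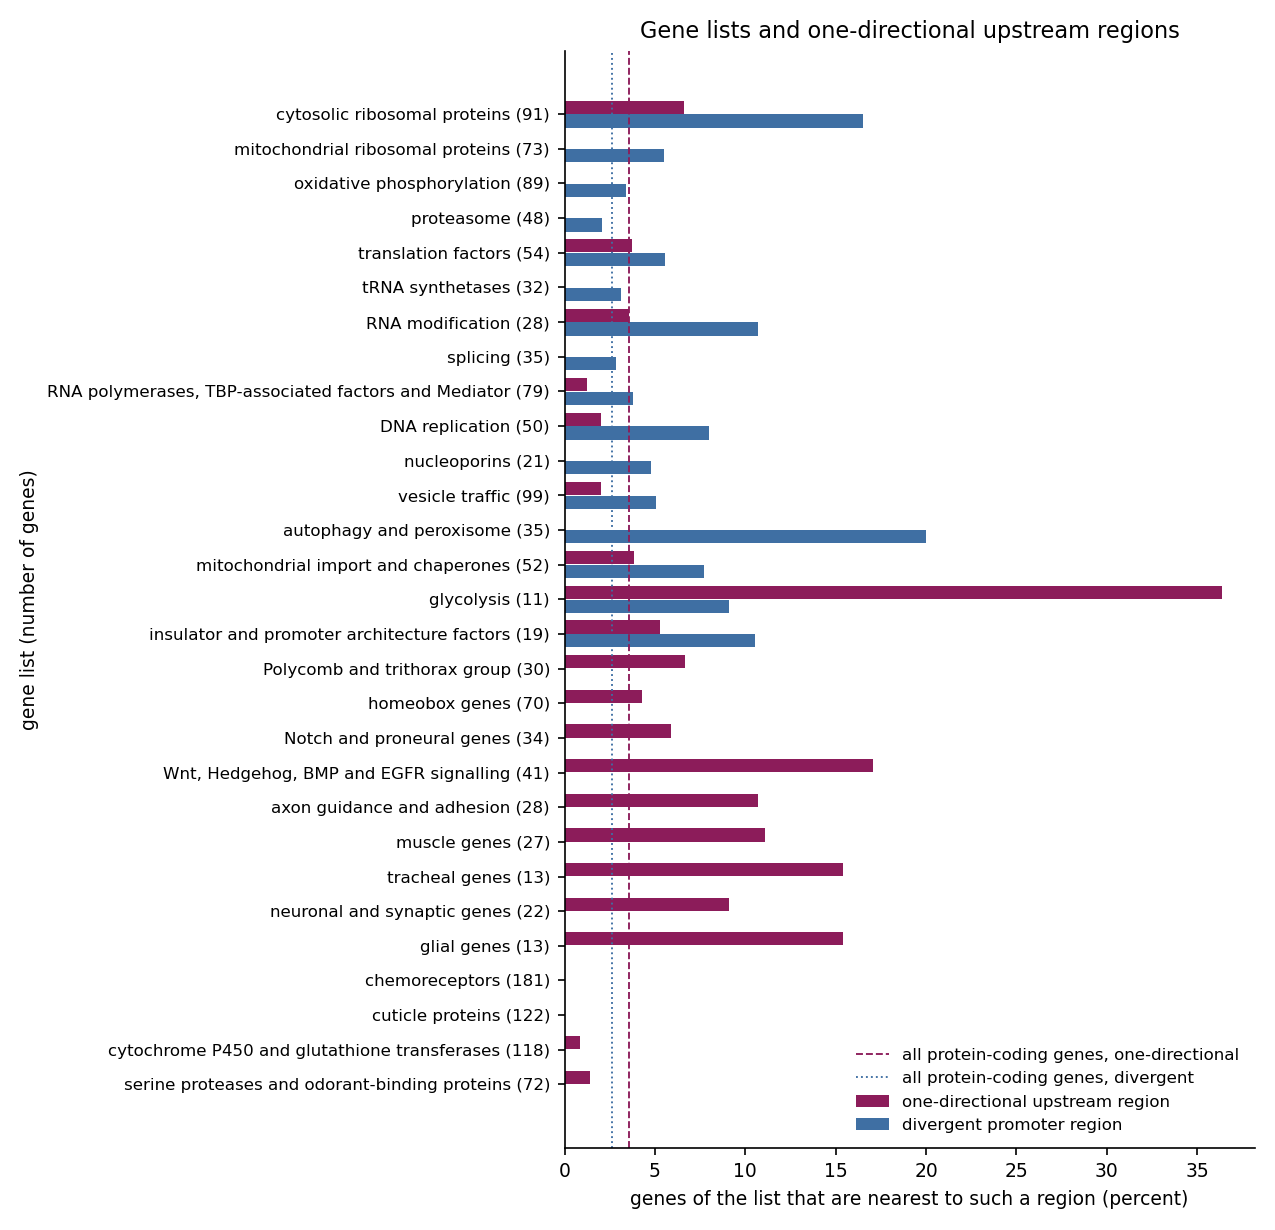
Share of the genes of each list (percent, horizontal axis; number of genes in brackets) that are the nearest gene of a one-directional upstream region (upper bar) or of a divergent promoter region (lower bar); dashed and dotted lines give the shares over all protein-coding genes. Glycolysis has the highest one-directional share, ahead of the signalling list. A list without a divergent bar is to be read beside the 2.62% over all genes.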

How the data were processed

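For each of 3 biological replicates the authors deposited a ranked and a thresholded peak list on dm6, per the file headers and descriptions. Each derives from that replicate's alignments and 1 shared file of unstated role, so the replicates are partly dependent. The peak signal was deposited by the authors with no stated scale and served only to rank peaks within a list. The authors' ranked lists give −log10 of an irreproducible discovery rate (IDR), and each thresholded peak reached 2 on that scale. The aligner and peak caller were not given in the sources used here. Read depth is unknown, so no counting interval is given for a peak. The control experiment named in the labels and 32 per-sample columns of the series' ranked lists were not used.

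Peaks were merged on overlaps of 1 bp. The strongest peak by percentile gave the summit, and its nearest TSS came from Ensembl release 115, transposable elements left out. Ties went to protein-coding genes, then to the upstream side, then to the gene ID. Windows of 200 bp were compared with flanks centred 500 bp away. 6-base word ratios had a pseudocount of 0.5 windows. Differences per replicate were compared by an exact paired permutation test over 3 replicates, and p-values were not adjusted. Classing and motif search were tested on simulated data. Python 3.11.15, numpy 2.4.6 and pandas 2.3.3 were used.

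The members, lists, motifs and naming rule (the 20 strongest regions in all 3 replicates, up to 3 per list, those at the limit and the 10 top words) were chosen with earlier results of these data known. Symbol patterns of the P450 and cuticle lists were corrected after their counts were seen, since they had taken in other genes. Alternatives were other replicates, limits, windows and flanks.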

Additional observations from a re-analysis of the deposited data

How the results depend on the processing

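The alternatives gave 64 values, of which 40 counted as unchanged. Most were judged by the spread between replicates, and the count of regions by staying within 1.5 times. The share with peaks in all 3 replicates was judged by an exact binomial interval over regions. Values on the log2 scale were judged only by sign and by whether the replicates agreed in sign. Leaving out 1 replicate gave 417 to 465 regions, a median distance of 234 to 238 bp, a TATCGA difference from distal regions of 2.77 to 3.49 percentage points a TAATTG difference of -0.058 to 0.735 and a GTCACAC difference of 0.940 to 1.59. With all 3 replicates required, these were 389 regions, 231 bp, 2.68 and -0.084. With an upstream limit of 500 bp, which also narrows what counts as divergent, there were 511 regions, a median distance of 183 bp and a TATCGA difference of 5.30. In regions of the conservative list the distance was 234 bp and the TAATTG difference 0.863. Windows of 100 bp gave a GC difference from the flank of -9.34 points and differences of 1.32 for TATCGA, -0.954 for TAATTG and 0.035 for GTCACAC. Windows of 400 bp gave -1.95 for GC content, 5.29 for TATCGA and 3.95 for GTCACAC, and turned TAATTG to -1.07. A flank on the gene's side gave -10.9 for GC content. Against their own flanks the TATCGA difference was 2.77 and that of TAATTG -0.722. The causes were not tested. Signal above distal regions kept its direction in each alternative, at 10.5 to 13.7 points and 0.27 on the log2 scale. With 3 replicates the exact permutation test cannot pass 0.05, and unknown depth limits what an absent peak means.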
